A study of Mus musculus with 8 samples.

Results

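The actin cytoskeleton and its transcriptional control were followed through 49 genes. They encode actins, actin-binding and contractile proteins, the transcription factor SRF (serum response factor), its coactivators and signalling proteins. The genes were taken by symbol from a table of 55359 gene identifiers, and 46 of them were among the 15164 features abundant enough to test. The cells were MLO-Y4, a mouse line with osteocyte features, seeded 72 h before treatment on collagen-coated dishes. One group of 4 libraries came from non-irradiated cells. The other group of 4 came from cells exposed for 1 min to a pulsed Er:YAG laser (an infrared dental laser whose 2940 nm light water absorbs strongly) at 6 J/cm2 from 25 cm. Medium was taken off before irradiation, and whether control dishes were also drained is not given, so draining and irradiation cannot be told apart. RNA was taken 6 h later. The column numbers give the names C5 to C8 for the controls and L5 to L8 for the irradiated libraries. Nothing states that they came from separate cultures, so p-values reflect only how far these libraries vary, possibly for technical reasons.

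Actin cycles between single molecules and filaments. Profilin, thymosins and cyclase-associated protein bind the single molecules, formins and the Arp2/3 complex start filaments, and cofilin with WDR1 takes them apart. Tropomyosin and caldesmon coat filaments, alpha-actinin and filamin crosslink them, and myosin II pulls on them. Free actin holds the coactivators MRTF-A and MRTF-B outside the nucleus. When assembly is driven forward the free pool shrinks, and the MRTFs enter the nucleus and join SRF on a short DNA element, the CArG box, near genes for actin and its partners. Osteocytes carry long actin-rich processes, and the cytoskeleton is one of the routes by which they are known to sense load.

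The promoters below are shown because they carry the element through which SRF acts. Of the 49 genes 45 had a RefSeq promoter entry (GRCm38.p6); none was used for Actb, Actg2, Tagln and Diaph1. A strict 10-letter CArG box, searched on both strands (the pattern reads the same on each), lay within 250 bases upstream of the annotated start in 8 of the 45 (17.8%). The same search found it in 439 of 27025 genes in that table (1.62%). The list holds known SRF targets, so its share is a description. The 8 were Srf, Actg1, Lima1, Cnn2, Rnd3, Fhl2, Fhl1 and Myl9. Capitals mark the boxes, and each sequence runs 5′ to 3′ on the gene's own strand.
Srf, chr17:46556175-46556284, minus strand: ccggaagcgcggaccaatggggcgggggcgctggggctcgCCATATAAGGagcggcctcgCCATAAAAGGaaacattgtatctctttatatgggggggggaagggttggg
Actg1, chr11:120348536-120348625, minus strand: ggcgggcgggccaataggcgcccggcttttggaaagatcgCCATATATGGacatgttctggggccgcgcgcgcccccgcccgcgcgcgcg
Lima1, chr15:99820150-99820236, minus strand: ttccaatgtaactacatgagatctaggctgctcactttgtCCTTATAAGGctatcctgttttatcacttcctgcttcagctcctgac
Cnn2, chr10:79988504-79988593, plus strand: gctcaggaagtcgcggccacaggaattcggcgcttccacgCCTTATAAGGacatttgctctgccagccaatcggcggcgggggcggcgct
Myl9, chr2:156775263-156775352, plus strand: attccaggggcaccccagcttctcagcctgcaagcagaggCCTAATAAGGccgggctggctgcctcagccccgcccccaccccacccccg
The Srf promoter alone among the 8 held a pair of boxes in 1 window, starting 82 and 62 bases before the start of transcription. The box of Actg1 started 90 bases upstream, that of Cnn2 56, that of Lima1 47 and that of Myl9 161. Lima1 and Cnn2 share the same 10 letters.

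Library totals ran from 43786209 to 51734166 counts, and the totals of the groups overlapped, as did the mitochondrial share of counts (1.50% to 1.58% in non-irradiated and 1.52% to 1.62% in irradiated libraries). Levels are CPM (counts scaled to a common library total), given as mean ± SD with n = 4, and a positive log2 fold change means higher in irradiated cells. Of the osteocyte markers, Pdpn and Gja1 had 11500 to 31823 counts per library and Phex had 579 to 832. Sost, Mepe and Fgf23 were at 0 counts in all 8 libraries, and Dmp1 had 0 to 29 counts. A count of 0 allows up to 0.0685 CPM in the smallest library, or 0.274 CPM if a fragment adds 4 counts, for counting error only. The osteocyte list summed to 738 to 765 CPM in non-irradiated and 927 to 960 CPM in irradiated libraries. Of its 3 tested members 2 were higher, Pdpn and Gja1, and Phex did not pass (edgeR adjusted p = 0.559). Smooth muscle markers other than Smtn had at most 16 counts in any library, and the list (1 of 1 tested member higher) summed to 101 to 105 against 114 to 131 CPM. The macrophage list summed to 17.2 to 20.9 against 28.1 to 31.3 CPM with 1 of 2 tested members higher, Csf1r. The other, Cd68, was lower in every irradiated library but did not pass (log2 fold change -0.34, edgeR adjusted p = 0.193). Ptprc and Adgre1 were at 0. Endothelial, striated muscle and adipocyte lists stayed below 5 CPM in sum in each library with 0 called. The part of these shifts in the results below was not tested. In a bulk library fewer cells of a type and less RNA per cell cannot be told apart.

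MLO-Y4 cells expressed the cytoplasmic actins and non-muscle myosin strongly, while several smooth muscle genes were near 0. Not all muscle-type genes were low: Flnc stood at 598.4 and Tpm2 at 296.6 CPM in non-irradiated cells, and the marker Smtn had 4702 to 6521 counts per library. In non-irradiated cells 33 of the 49 genes stood at 100 CPM or more and 6 at 1000 or more. Per kilobase of transcript the highest were Actg1 (2018 CPM per kilobase), Actb (1842), Pfn1 (948), Tmsb10 (595) and Tpm4 (380.5). At the other end, Acta2, Actg2, Cnn1, Fhl1 and Myl9 lay below 1 CPM. Acta2, the smooth muscle actin and a classic SRF target, had 0, 0, 0 and 7 counts in C5 to C8 and 4, 0, 6 and 18 in L5 to L8. Cnn1, the smooth muscle calponin, had 14, 0, 7 and 4 against 13, 0, 11 and 23 counts. Myl9, the smooth muscle form of the regulatory light chain, had 17, 28, 15 and 11 against 14, 26, 0 and 11. Tagln, a calponin relative used as a smooth muscle marker, was the best expressed of these and still low, at 2.15, 2.1, 2.37 and 2.57 CPM in C5 to C8 and 2.36, 1.96, 3.58 and 1.73 CPM in L5 to L8. The groups overlapped for all 4 genes. Acta2, Actg2 and Fhl1 fell below the filter and were not tested. Cnn1 and Myl9 passed it with few counts, and their adjusted p in edgeR was 0.599 and 0.696.

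**Figure D1:**
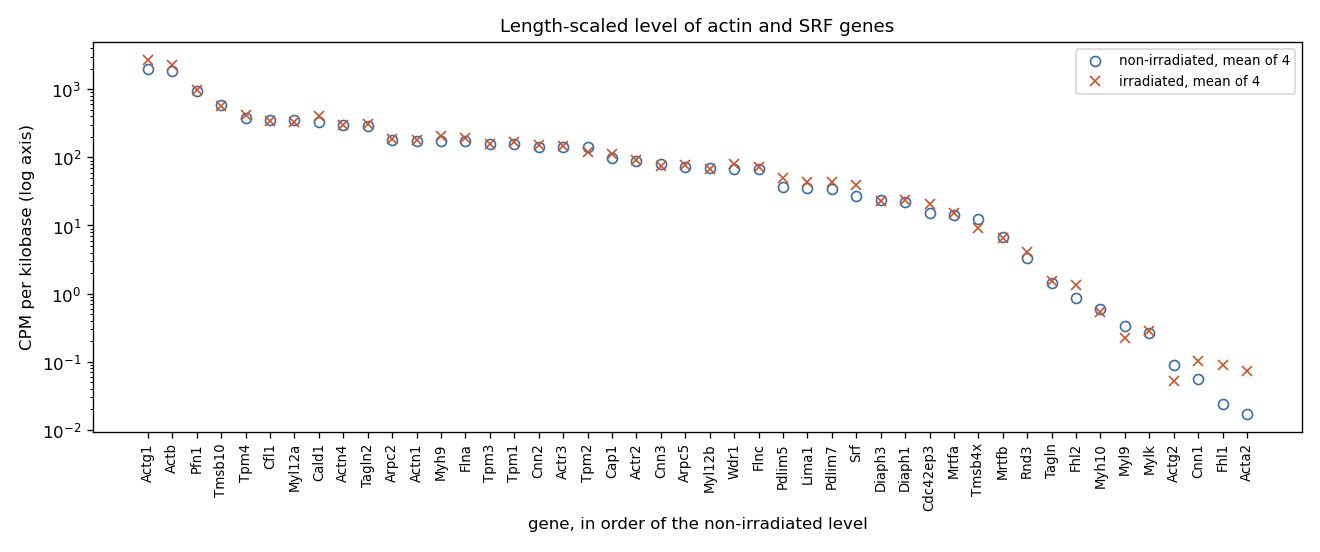
Mean level of the genes described here in CPM per kilobase of transcript (log axis), ordered by the level in non-irradiated cells, with circles for non-irradiated and crosses for irradiated cells (means of 4 libraries). Actg1 and Actb lead at 2018 and 1842, and the smooth muscle genes Acta2, Cnn1 and Actg2 lie below 0.1 in non-irradiated cells.

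After irradiation 17 of the 46 tested genes rose, 3 fell and 26 stayed above the threshold, an adjusted p of 0.05 by edgeR's quasi-likelihood test with Benjamini-Hochberg correction over all 15164 features. Across all features 15.0% passed, 8.22% higher and 6.75% lower, against 43.5% of these genes. These genes are abundant, and abundant features passed more often. At 100 to 1000 CPM 33.4% of all features passed and 11 of 27 of these genes did. At 1000 CPM and over the figures were 40.0% and 5 of 6. At 10 to 100 CPM they were 17.6% and 3 of 5, and below 10 CPM they were 3.69% and 1 of 8. The median log2 fold change was 0.08 for the 46 genes and -0.01 for all features. With library totals alone setting the scale, 14 genes rose and 3 fell, while over all features the split went from 1247 higher and 1023 lower to 1050 and 1345.

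Log2 fold changes of the called genes ran from -0.45 (Tmsb4x) to 0.52 (Srf). The groups did not overlap in 19 of the 46 genes, 15 higher and 4 lower, against 18.5% of all features (9.76% higher and 8.78% lower). Called genes that overlapped were Tpm1, Flna and Cdc42ep3, each through C6 and L6, and Actr3 and Cfl1 were apart without a call. Among the irradiated libraries L6 was the lowest in 14 of the 17 genes that rose, and among the non-irradiated ones C6 was the highest in 10. Without L6, 18 genes rose and 3 fell with a median of 0.11, and without both libraries numbered 6, 19 rose and 2 fell with a median of 0.09. Leaving out C8 left 1 lower gene, Tpm2, since Cnn3 and Tmsb4x lost their calls. Together the 49 genes took 2.28% to 2.31% of all counts in non-irradiated and 2.48% to 2.66% in irradiated libraries. Summed levels were 22710 ± 124 and 26050 ± 972 CPM, and the actins made up 64.8% of that difference.

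**Figure D2:**
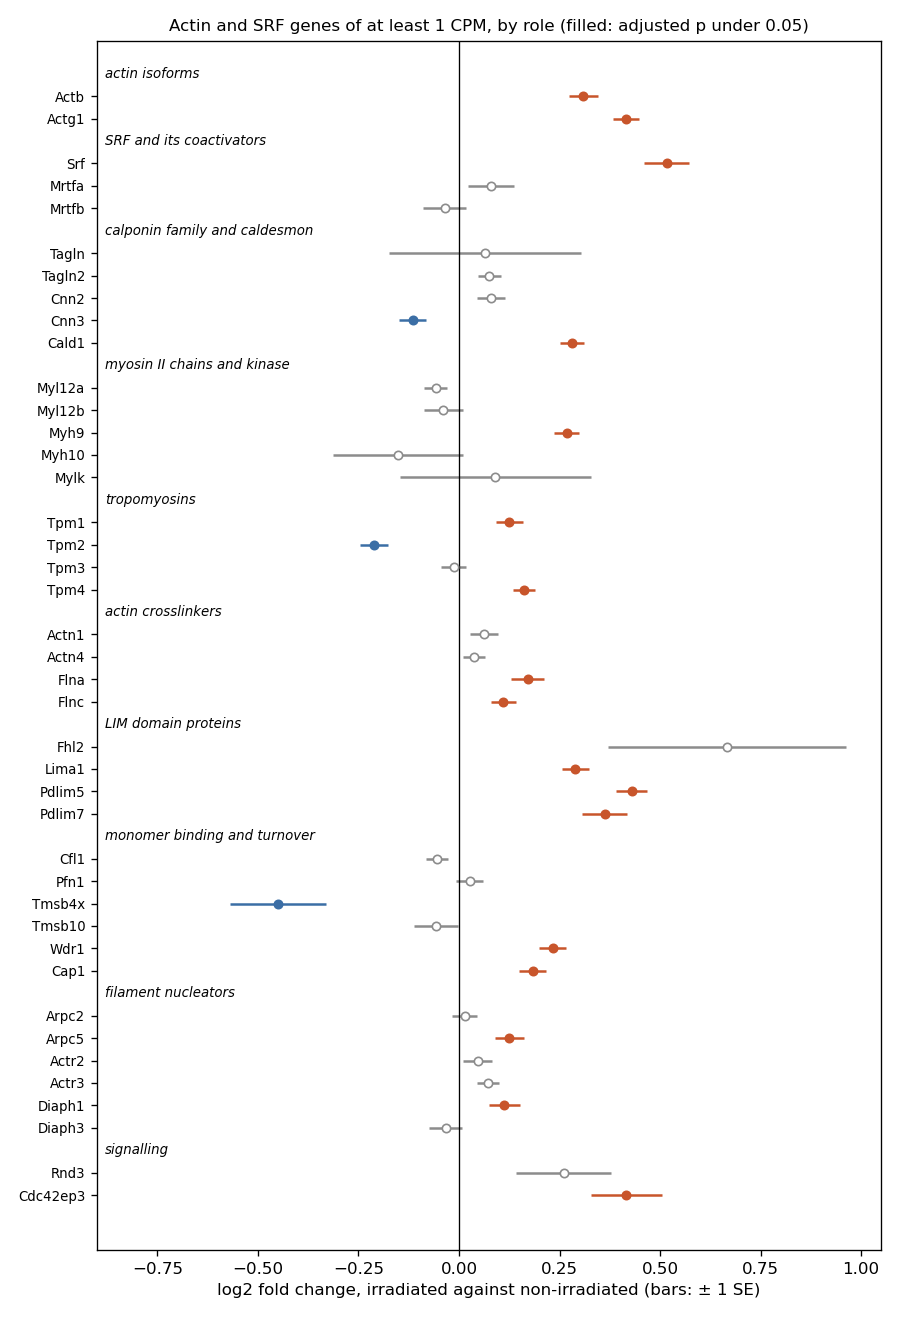
Log2 fold change (irradiated against non-irradiated, bars ± 1 SE from edgeR) of the genes described here with at least 1 CPM, grouped by role, with filled points for adjusted p under 0.05. The LIM domain and actin groups lie to the right of 0. Tpm2, Cnn3 and Tmsb4x lie to the left within groups whose other members rose or did not pass.

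Both cytoplasmic actins rose. Actg1, the gamma form, measured 3897, 3924, 3913 and 4023 CPM in C5 to C8 and 5081, 4921, 5510 and 5507 CPM in L5 to L8. Every irradiated library lay above all non-irradiated ones, and the 1.33-fold rise (log2 fold change 0.42, SE 0.032) had an edgeR adjusted p of 7.25e-08. Actb, the beta form, measured 3463, 3487, 3544 and 3650 CPM against 4194, 4101, 4570 and 4651 CPM. It rose 1.24-fold (log2 fold change 0.31, SE 0.036, adjusted p = 2.36e-05), again with no overlap. These genes ranked seventh and eighth of all features by CPM in non-irradiated cells. The balance between them moved slightly: per kilobase Actg1 took 52.3% ± 0.29 of the family in non-irradiated and 54.1% ± 0.247 in irradiated cells, with ranges of 52% to 52.5% and 53.8% to 54.4% that do not meet. The coding sequences are near-identical and both genes have processed copies in the genome, so how reads were divided between them is uncertain. Actg2, the enteric smooth muscle actin, had 23 counts over the non-irradiated and 14 over the irradiated libraries.

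Srf itself showed the largest change among the called genes of the 49, and its coactivator genes did not pass. Srf measured 71.5, 75.8, 75.2 and 65.5 CPM in C5 to C8 and 101.9, 93.3, 105.9 and 111 CPM in L5 to L8. The lowest irradiated library was above the highest non-irradiated one, a 1.43-fold rise (log2 fold change 0.52, SE 0.055, edgeR adjusted p = 2.15e-06). Mrtfa, the gene of MRTF-A, measured 66.7, 56.4, 56 and 57.6 against 64.2, 64.4, 61.5 and 59.8 CPM (log2 fold change 0.08, SE 0.057, adjusted p = 0.408). Mrtfb, the gene of MRTF-B, measured 59.4, 55.9, 56.6 and 52.1 against 57.9, 55.8, 53.1 and 51.9 CPM (log2 fold change -0.03, SE 0.054, adjusted p = 0.749). Both coactivator genes overlapped between groups, and the high value of Mrtfa in C5 stood apart from the other non-irradiated libraries. Protein location, through which MRTFs act, was not measured.

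**Figure D3:**
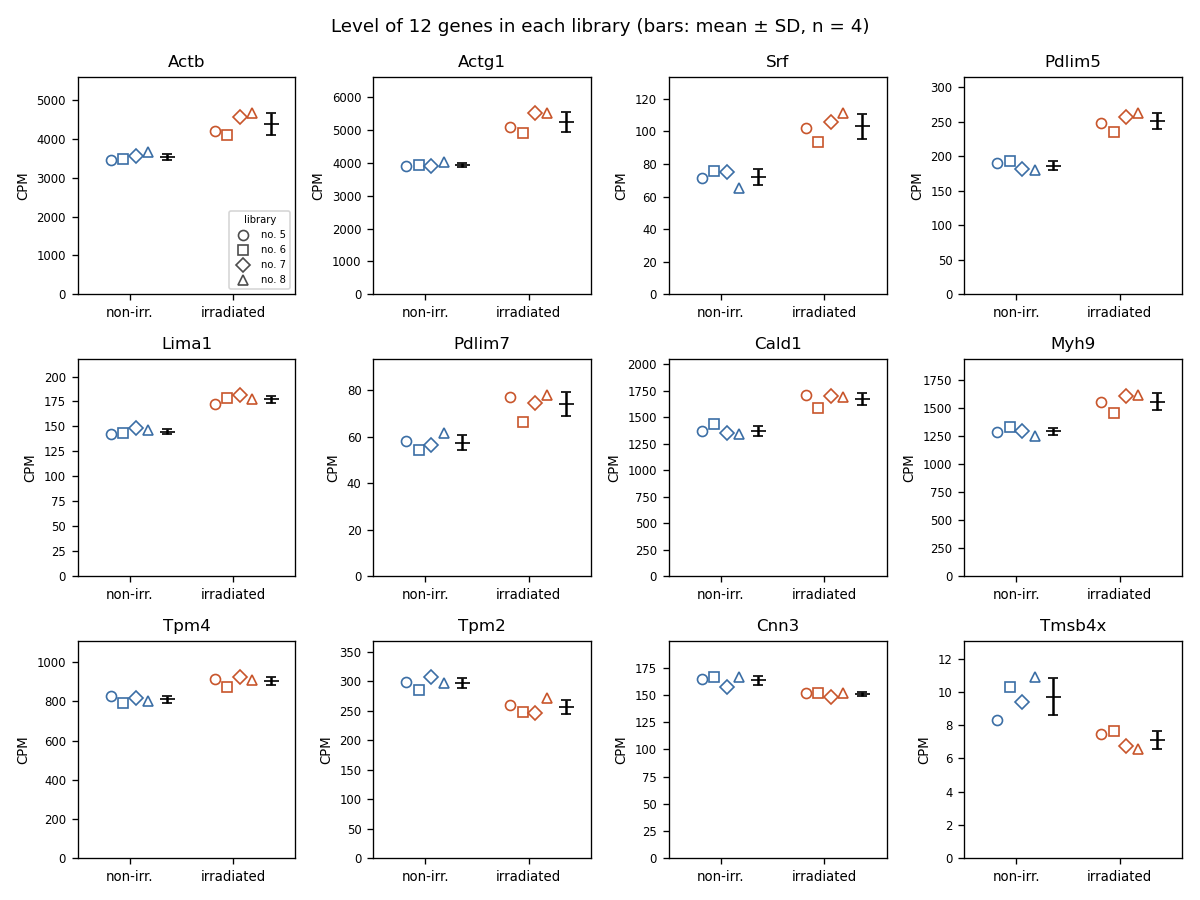
CPM of 12 genes in each of the 8 libraries (y axes start at 0), with marker shape for the library number, blue for non-irradiated and orange for irradiated cells, and black bars for mean ± SD (n = 4). In all 12 panels the groups are apart, 9 with the irradiated libraries higher and Tpm2, Cnn3 and Tmsb4x with them lower, and L6 (orange square) is the lowest irradiated library for Actb, Actg1, Srf, Pdlim5, Pdlim7, Cald1, Myh9 and Tpm4.

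Genes of LIM domain proteins, zinc-finger adaptors that sit on actin bundles and adhesions, rose in 3 of 4 tested members. Pdlim5, a PDZ and LIM protein that binds alpha-actinin, measured 190.2, 193.7, 181 and 180.5 CPM in C5 to C8 and 248.7, 235.7, 257.2 and 262 CPM in L5 to L8. It rose 1.35-fold without overlap (log2 fold change 0.43, SE 0.038, edgeR adjusted p = 1.14e-07). Pdlim7, or enigma, measured 58.1, 54.3, 56.3 and 61.6 against 77, 66.5, 74.7 and 77.9 CPM. It rose 1.28-fold (log2 fold change 0.36, SE 0.056, adjusted p = 0.000113). Here too the groups stayed apart, with L6 closest to the non-irradiated libraries. Lima1, or EPLIN, a filament bundling and stabilizing protein whose CArG box is printed above, measured 142.1, 143, 148 and 146.7 against 172.1, 178.1, 181.1 and 177 CPM. Its 1.22-fold rise (log2 fold change 0.29, SE 0.033, adjusted p = 4.4e-06) was among the most even, with SDs of 2.87 and 3.75 CPM. Fhl2, a four-and-a-half-LIM coregulator of SRF, was low at 1.34 ± 0.502 and 2.12 ± 0.615 CPM, with a log2 fold change of 0.67 and an SE of 0.296 (adjusted p = 0.147). C5 was its outlying library, and without it the adjusted p was 0.0423. Fhl1, its muscle relative, had 11 and 41 counts and was not tested.

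Within the calponin family and caldesmon, 1 of 6 genes rose and 1 fell. Cald1, caldesmon, which holds back actin-myosin contact, measured 1368, 1439, 1348 and 1337 CPM in C5 to C8 and 1705, 1582, 1695 and 1693 CPM in L5 to L8. The groups were apart, and it rose 1.21-fold (log2 fold change 0.28, SE 0.030, edgeR adjusted p = 1.58e-06). Cnn3, the acidic calponin, went the other way, with means of 163.5 ± 4.03 and 151 ± 1.8 CPM, a log2 fold change of -0.12 (SE 0.033) and an adjusted p of 0.0236. That call ended without C5 (adjusted p = 0.0788), C8 (0.0617), L5 (0.0503) or L7 (0.0854). Cnn2, the calponin with a CArG box in its promoter, gave 350.1 ± 11.8 and 370.2 ± 16 CPM (adjusted p = 0.135). Tagln2, the non-muscle transgelin, gave 459.9 ± 6.92 and 484.4 ± 13.1 CPM (adjusted p = 0.0892), and passed without L6 (0.0358). In the family share per kilobase Cnn3 went from 15.5% ± 0.35 to 13.9% ± 0.455 with no overlap.

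Of the 6 myosin II genes only Myh9 rose and none fell. Myh9, the main non-muscle heavy chain, measured 1287, 1328, 1293 and 1252 CPM in C5 to C8 and 1547, 1449, 1606 and 1609 CPM in L5 to L8. It rose 1.2-fold with no overlap (log2 fold change 0.27, SE 0.032, edgeR adjusted p = 6.32e-06). Per kilobase it made up 99.7% of the pair with Myh10, another non-muscle heavy chain, which stood at 4.63 ± 0.432 and 4.17 ± 0.632 CPM. The regulatory light chain genes did not pass: Myl12a gave 679.6 ± 11.3 and 652.8 ± 17.7 CPM (adjusted p = 0.184), and Myl12b gave 150.9 ± 11.9 and 146.9 ± 5.83 CPM (adjusted p = 0.683). The light chain genes are close paralogs, and a second identifier with the symbol Myl12b, overlapping the first, held 65 counts in C7, 154 in L6 and 0 elsewhere. Mylk, the kinase that activates the light chain in smooth muscle, stood at 2.08 ± 0.307 and 2.21 ± 0.598 CPM (adjusted p = 0.862).

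The 4 tropomyosin genes did not move together, 2 rising, 1 falling and 1 not passing. Tpm2 measured 298.1, 285, 306.2 and 297.2 CPM in C5 to C8 and 259.7, 247.7, 246.1 and 271 CPM in L5 to L8. All irradiated libraries lay below all non-irradiated ones, and the gene fell by 0.21 on the log2 scale (1.16-fold lower, SE 0.036, edgeR adjusted p = 0.000291). Tpm4, the most abundant member, rose 1.12-fold, from 809.8 ± 15.7 to 905.4 ± 21.3 CPM (SE 0.027, adjusted p = 0.00029), also without overlap. Tpm1 went from 295.1 ± 9.12 to 322 ± 13.3 CPM (log2 fold change 0.13, adjusted p = 0.0173). It overlapped through C6 and L6, and its call ended without C5 (0.0546), C7 (0.0718), L5 (0.0747) or L8 (0.0675). Tpm3 gave 349.1 ± 9.91 and 345.8 ± 7.11 CPM (adjusted p = 0.837). In shares per kilobase Tpm4 went from 45.6% ± 0.384 to 48.8% ± 0.47 of the family, Tpm2 went from 17% ± 0.315 to 14% ± 0.506 and Tpm3 from 18.8% ± 0.317 to 17.8% ± 0.321, each without overlap. Each tropomyosin gene makes several isoforms by splicing and alternative starts, which gene counts do not separate.

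**Figure D4:**
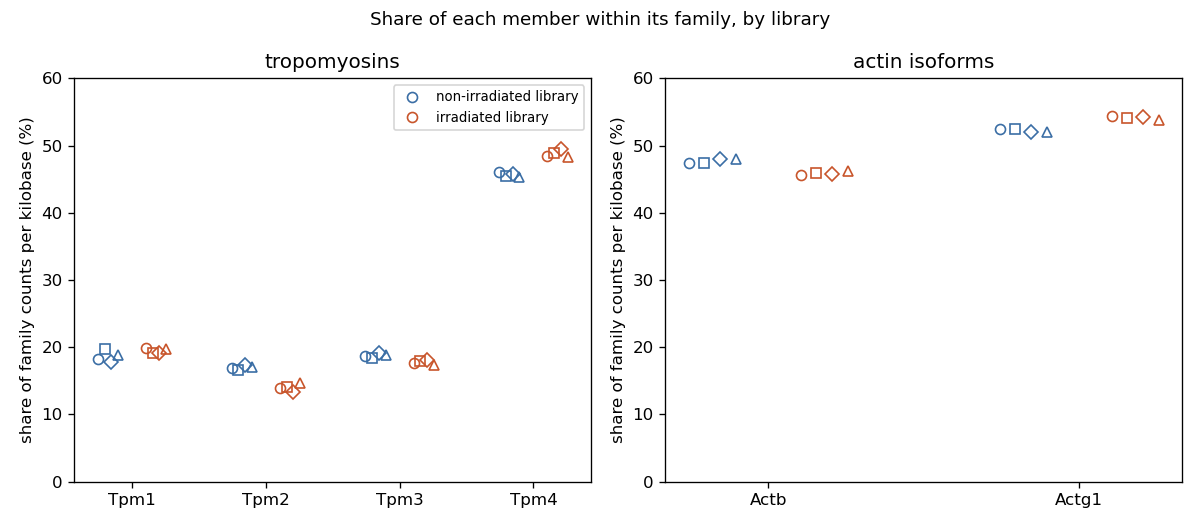
Share of each gene in its family's counts per kilobase, in percent, by library (marker shape for the library number), for the tropomyosins and for the 2 expressed actins. Tpm4 and Actg1 took a larger share in every irradiated library (blue non-irradiated, orange irradiated), and Tpm2, Tpm3 and Actb a smaller one.

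Both filamin genes rose and both alpha-actinin genes did not pass. Flna, filamin A, measured 1463, 1566, 1405 and 1411 CPM in C5 to C8 and 1656, 1534, 1752 and 1637 CPM in L5 to L8. It rose 1.13-fold (log2 fold change 0.17, SE 0.041, edgeR adjusted p = 0.0101), with C6 above L6 and the other libraries apart. With the library number fitted as a replicate block its adjusted p was 0.0506, and the call ended. Flnc, the muscle-type filamin, was even in non-irradiated cells at 598.4 ± 2.43 CPM and reached 645.8 ± 29.5 CPM (log2 fold change 0.11, adjusted p = 0.0203). Its call ended without C7 (0.0525), C8 (0.0511), L5 (0.0517), L7 (0.0882) or L8 (0.0523) and with library totals alone (0.0567). Actn1 gave 655.2 ± 14.1 and 683.9 ± 39.7 CPM (adjusted p = 0.278) and Actn4 1148 ± 31.5 and 1178 ± 23.6 CPM (adjusted p = 0.399). Actn1 passed without L6 (0.0211), which lay below all non-irradiated libraries while the other irradiated ones lay above them.

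Among genes for actin monomer binding and turnover 2 rose, 1 fell and 3 did not pass. Wdr1, the cofilin partner that speeds disassembly, measured 203.4, 217.6, 203.8 and 207.3 CPM in C5 to C8 and 242.9, 238.1, 243.4 and 253.7 CPM in L5 to L8. Cap1, cyclase-associated protein, which recharges actin released from filaments, measured 272.8, 275.8, 271 and 263 against 298.2, 299.8, 308.2 and 322.7 CPM. Both kept the groups apart. Wdr1 rose 1.18-fold (log2 fold change 0.23, SE 0.034, edgeR adjusted p = 5.64e-05) and Cap1 1.14-fold (log2 fold change 0.18, SE 0.032, adjusted p = 0.000523). Cfl1, cofilin itself, gave 842.7 ± 21.4 and 811.5 ± 11.7 CPM (adjusted p = 0.198) and Pfn1, profilin, 816.6 ± 39.3 and 831.8 ± 27.3 CPM (adjusted p = 0.685). Cfl1 was lower in every irradiated library although it did not pass.

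The thymosins, which sequester actin monomers, were very unequal. Tmsb10 gave 410.2 ± 35.9 and 394.2 ± 14.9 CPM (edgeR adjusted p = 0.578), and passed without C6 (0.0323). Tmsb4x measured 8.31, 10.3, 9.38 and 10.9 CPM in C5 to C8 and 7.46, 7.66, 6.74 and 6.58 CPM in L5 to L8. It fell 1.37-fold with no overlap (log2 fold change -0.45, SE 0.118, adjusted p = 0.0133), a call that ended without C8 (0.0554). Per kilobase Tmsb4x made up 2.09% ± 0.308 of the pair in non-irradiated and 1.59% ± 0.0963 in irradiated cells. Thymosin genes have processed copies in the genome, and how reads that match several places were counted is not given in the sources used here.

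Filament nucleator genes moved little, with 2 of 6 higher. Arpc5, an Arp2/3 subunit, rose 1.09-fold, from 137.7 ± 2.12 to 150.1 ± 4.94 CPM (edgeR adjusted p = 0.0199), and lost its call without L5 (0.0789) or L8 (0.0723) and with library totals alone (0.0548). Diaph1, a formin, went from 124.4 ± 3.38 to 134.5 ± 4.74 CPM (log2 fold change 0.11, adjusted p = 0.0481). Leaving out any single library other than C6 or L8 ended that call (adjusted p up to 0.153, without L7), as did library totals alone (0.112), a filter of 1 count (0.0666) and limma-voom (0.0571). Actr3 gave 363.9 ± 3.85 and 382.3 ± 4.38 CPM with no overlap (adjusted p = 0.0906). Its partner Actr2, the subunit Arpc2 and the formin gene Diaph3 had adjusted p of 0.441, 0.834 and 0.674.

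Among 5 genes of signalling proteins 1 rose, Cdc42ep3, 0 fell and 4 did not pass. This gene encodes an effector of CDC42 that binds septins and actin, and it measured 35.8, 41.4, 30 and 32.2 CPM in C5 to C8 and 48.6, 41.4, 47.4 and 48.6 CPM in L5 to L8. It rose 1.33-fold (log2 fold change 0.42, SE 0.087, edgeR adjusted p = 0.00409), and C6 and L6 met at 41.4 CPM while the other libraries were apart. Rnd3, whose promoter carries a CArG box, gave 9.49 ± 0.613 and 11.4 ± 1.84 CPM (adjusted p = 0.158), and passed without L5 (0.0306).

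By promoter element, 3 of the 7 tested genes with a CArG box rose (Srf, Actg1 and Lima1), 0 fell and 4 did not pass, with a median log2 fold change of 0.29. Of 36 tested genes with a promoter entry and no box in the window, 12 rose, 3 fell and 21 did not pass, with a median of 0.07. No test was made, and a missing box says only that these letters are not in this stretch.

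The wider pathway was read from 6 further lists of 89 genes, of which 86 were tested, 28 higher and 6 lower. The share called was 39.5%, against 15.0% of all features and 33.4% of those at 100 to 1000 CPM. Other SRF target genes rose in 8 of 17 and fell in 1, with a median of 0.18. Ccn1, a secreted matrix-associated protein, rose from 133.7 ± 4.54 to 219.4 ± 26.5 CPM (1.64-fold, edgeR adjusted p = 0.000406), and Ankrd1, a muscle-type ankyrin repeat protein, from 13.2 ± 1.19 to 21.4 ± 2.27 CPM (1.62-fold, adjusted p = 2.17e-05). The other called genes of that list, named after their values were seen, include vinculin (Vcl, 1.23-fold higher), zyxin (Zyx, 1.13-fold) and Hic-5 (Tgfb1i1, 1.34-fold), with adjusted p of 0.00329, 0.000226 and 7.83e-06. Also named afterwards, Fos was the 1 gene of the list that fell (log2 fold change -0.61, adjusted p = 0.00153), Ier2 rose 1.13-fold (adjusted p = 0.0485), and Egr1 gave 148.8 ± 8.79 and 142.4 ± 5.56 CPM (adjusted p = 0.374).

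Other formin and elongation genes rose in 4 of 9, led by the formins Fhod1 (99.4 ± 4.38 to 132.6 ± 2.26 CPM, 1.33-fold, edgeR adjusted p = 2.64e-07) and Fmnl3 (1.15-fold, adjusted p = 0.00425). Arp2/3, WASP and WAVE genes rose in 2 of 13 with a median of -0.01, beside 8.22% higher over all features. These were Nckap1, a WAVE complex subunit (1.15-fold, adjusted p = 0.00128), and Arpc3 (1.12-fold, adjusted p = 0.0208), whose call ended without C5 (0.0821), C7 (0.0729), L7 (0.0721) or L8 (0.0781).

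Genes of monomer handling, severing and capping fell in 4 and rose in 2 of 13, with a median of -0.07. Dstn, destrin, a cofilin relative that depolymerizes actin, fell 1.21-fold, from 239.4 ± 10.3 to 198.5 ± 5.04 CPM (edgeR adjusted p = 2.17e-05). Coro1c, a coronin, rose from 209.8 ± 7.92 to 253.2 ± 5.56 CPM (log2 fold change 0.27, adjusted p = 1.15e-05). The other falls, named after their values were seen, were gelsolin (Gsn, log2 fold change -0.12), the gelsolin relative Capg (-0.16) and the coronin Coro1b (-0.24). Among 15 tested genes of other myosins and crosslinkers 5 rose and 1 fell. Synpo, synaptopodin, fell from 30.3 ± 0.575 to 22 ± 1.5 CPM (1.38-fold lower, edgeR adjusted p = 5.44e-05). Pdlim2, a relative of Pdlim5 and Pdlim7, rose from 41 ± 3.47 to 53.6 ± 2.73 CPM (1.31-fold, adjusted p = 0.000182). Pdlim1 of the same list, named after its values were seen, did not pass (log2 fold change 0.06, adjusted p = 0.575).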

How the data were processed

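Poly(A) RNA was sequenced from 4 non-irradiated and 4 irradiated MLO-Y4 samples. StringTie 2.1.7, HISAT2 2.2.1, DESeq2 1.32.0, Trimmomatic 0.39 and FastQC 0.11.9 appear, with build GRCm39, in the submitters' processing notes. No source used here gives settings, annotation release or strand use, so overlapping genes and paralogs are uncertain. The authors deposited whole-number estimated counts per gene, not normalized, and no rounding was needed. The value 4 occurred 6096 times against 4006 for 3 and 2428 for 5, so a fragment may add about 4 counts. Columns are numbered 5 to 8 and sample titles 1 to 4, so columns were tied to groups only.

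Symbols came from GENCODE M21 by identifier without version (52083 of 55359), as did transcript lengths (longest principal coding transcript). Of 2 identifiers named Myl12b the one with more counts was used. edgeR 4.0.16 in R 4.3.3 was fitted to all 8 libraries (filterByExpr minimum count 10, TMM scaling, robust glmQLFit, group as the only term), with Benjamini-Hochberg adjustment over 15164 features and a threshold of 0.05; SE is the size of the log2 fold change divided by the square root of F. The procedure was tested on simulated data. The genes, role groups, 6 further lists and marker lists were chosen with earlier results of these data known. Values in every library are given for Srf, Mrtfa, Mrtfb, Actb, Actg1, Acta2, Tagln, Cnn1, Myl9 and the 14 called genes with the largest changes, and each further list gives the 2 called genes with the largest changes. A few of the 49 genes and 1 of the 6 further lists enter the counts over all genes but are not reported here singly.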

Additional observations from a re-analysis of the deposited data

Results flagged for a closer look

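In 9 of 116 groups of 4 libraries examined for these genes, 1 library lay apart from the other 3 by Dixon's gap-to-range ratio, which chance gives in about 1 of 20 groups. Among non-irradiated libraries, C5 was high for Mrtfa (66.7 CPM against 56 to 57.6) and Fhl2 (2.09 against 1.07 to 1.09). C8 was high for Cfl1 (874.7 against 831.1 to 833.2), C6 for Fhod1 (105.9 against 96.4 to 97.7), and C7 was low for Cnn3 (157.5 against 164.6 to 166). Among irradiated libraries, L6 was low for Cald1 (1582 against 1693 to 1705) and Cdc42ep3 (41.4 against 47.4 to 48.6), L7 was low for Cnn3 (148.3 against 151.8 to 152), and L5 was high for Rock2 (502.2 against 472.4 to 475.3).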

How the results depend on the processing

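Of the 20 called genes of the module, 13 kept call and direction under each of the 15 alternatives. Leaving out 1 library at a time gave 14 to 18 genes higher and 1 to 4 lower in the module. It gave 1672 to 2673 calls over all features (976 to 1501 higher and 696 to 1172 lower) and 22 to 30 higher and 6 to 7 lower in the further lists. Same-numbered libraries did not deviate together (correlations of -0.0559 to -0.00538). This gave no sign of pairing by number, but it cannot show that same-numbered libraries were handled apart. With the number as a replicate block 13 genes of the module were higher and 2 lower, of 1757 calls in all. Flna (edgeR adjusted p = 0.0506), Flnc (0.0526), Tpm1 (0.0551), Diaph1 (0.0674) and Cnn3 (0.0514) lost their calls there. DESeq2 called 19 higher and 3 lower in the module, adding Tagln2 (0.0474) and Actr3 (0.035). Without both libraries numbered 6 Actn1 (0.00278) and Tagln2 (0.025) passed and Cnn3 did not (0.0547). Genes that did not pass changed sign in 8 cases: Arpc2 with library totals alone (log2 fold change -0.0089), Tagln with limma-voom (-0.0117), Mylk without both libraries numbered 6 (-0.0512), and 4 genes with 1 library left out. These ranged from -0.18 (without L7) to 0.19 for Tagln, from -0.0704 (without L6) to 0.20 for Mylk, from -0.0033 (without C6) to 0.053 for Pfn1, and from -0.032 to 0.0018 (without L6, and 0.0012 without C7) for Tpm3. The cause was not tested. Shares taken from counts not divided by length moved by more than 1 SD in 29 of 46 cases. Low levels were measured less finely: the median SE was 0.24 below 10 CPM and 0.034 at 100 to 1000 CPM.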
